A study of Mus musculus with 6 samples.

Results

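The p53 family and the regulators that act directly on it were followed in mouse hair follicle stem cells and hair germ after a skin carcinogen. The 10 genes were chosen by name, as the 3 family members Trp53, Trp63 and Trp73, the negative regulators and stability factors Mdm2, Mdm4, Ppm1d and Usp7, and the damage kinases Atm, Atr and Chek2. Their 16 probes, out of 44955 probes tested and 17848 genes with a tested probe, were found through the RefSeq accession of each probe. The cells came from depilated male mice treated on the skin with vehicle (acetone) or with 7,12-dimethylbenz[a]anthracene (DMBA), a polycyclic hydrocarbon whose metabolites form bulky adducts on DNA. Cells with high K15-EGFP, a reporter driven by the keratin 15 promoter, with high surface ITGA6 and without surface Sca1 were sorted 3 days later. Each group held 3 samples from different mice, each on a 1-colour array. Strain, age and dose are not given in the sources used here, and all 6 mice were depilated, so the vehicle group is itself in a depilated state.

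The p53 protein is a transcription factor that is held at a low level by the ubiquitin ligase MDM2 and its partner MDM4. DNA damage activates the kinases ATM and ATR and, through ATM, CHK2, which phosphorylate p53 and its inhibitors, so the pathway is switched mostly on the protein and not on the transcript of p53. Active p53 then induces target genes, among them Mdm2 and Ppm1d, which close a feedback loop. Its relative p63 maintains basal keratinocytes and their stem cells.

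Transcripts of p53 and of its regulators were detected on every array, and none was shown to differ after DMBA. All 16 probes were well above background on all 6 arrays, as were 36015 of the 44955 probes tested. With limma's moderated test and Benjamini-Hochberg adjustment over all probes, 0 of the 16 passed at 0.05 (smallest adjusted p = 0.921, for Chek2), as did 0% of all probes. At unadjusted p under 0.05 in limma, 1 member probe was lower (Chek2) and 0 were higher, where 2.22% of all probes were lower and 2.68% higher (4.9% either way). The groups did not overlap in 2 member probes, both lower after DMBA (Chek2 and 1 of 3 Trp73 probes), against 4.25% of all probes lower and 4.78% higher without overlap (9.03% either way). Of the log2 fold changes, 6 were above 0 and 10 below, where 51.5% of all probes were above and 48.5% below, and they ranged from -1.30 to 0.67 with a median of -0.11. The median over all probes was 0.01.

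Values are log2 signals minus the log2 of the 75th percentile of their array, and a change is the DMBA mean minus the vehicle mean on that scale. Probes bind with different strength, so levels are compared between samples and not between genes. The median residual SD was 0.51 for member probes and 0.47 for all probes. It was 0.30 in the brightest of 3 equal groups of probes by mean signal, to which 13 of the 16 member probes belong, and 0.50 in the middle group, which holds the other 3. In bulk RNA of sorted cells, fewer cells that express a gene and less RNA of it per cell cannot be told apart.

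**Figure D1:**
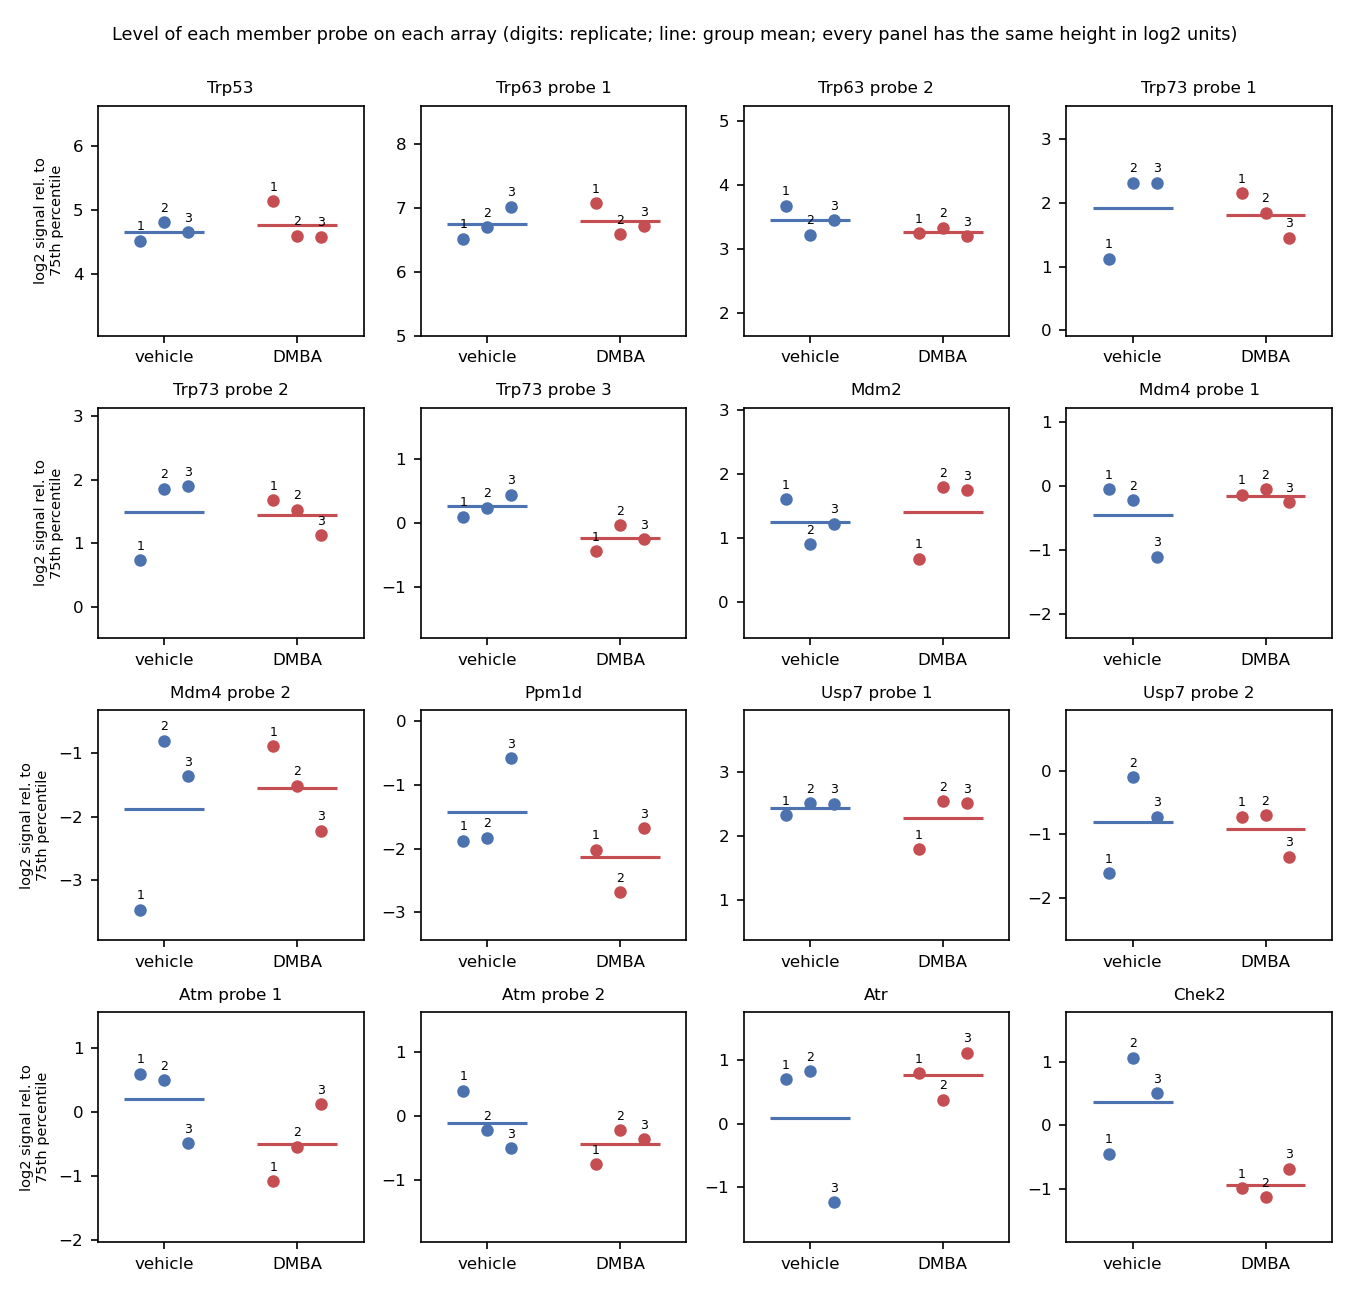
Level of each of the 16 member probes on each array, in log2 units relative to the 75th percentile of the array, with vehicle in blue, DMBA in red, digits for the replicate and lines for group means. The groups are apart for Chek2 and for probe 3 of Trp73, and overlap for the other 14 probes.

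Promoter sequence of 3 members is shown first, because Trp73 and Chek2 held the probes whose groups did not overlap and Mdm2 is the classical feedback target of p53. The windows are the 250 bases before an annotated start, from RefSeq on GRCm38.p6, printed 5′ to 3′ on the strand of the gene. A window was found for 9 of the 10 members, 11 windows in all. Capitals mark matches on either strand to the p53 response element, to the CCAAT box (CCAAT, or ATTGG on the other strand) and to an E2F motif (TTTGGCGC, TTTCCCGC, TTTCGCGC or TTTGCCGC). A p53 match was a pair of half-sites of 10 bases with a spacer of at most 13 and at most 2 mismatches outside the fixed C and G.
Trp73, start inside the gene, chr4:154097174-154097423, minus strand: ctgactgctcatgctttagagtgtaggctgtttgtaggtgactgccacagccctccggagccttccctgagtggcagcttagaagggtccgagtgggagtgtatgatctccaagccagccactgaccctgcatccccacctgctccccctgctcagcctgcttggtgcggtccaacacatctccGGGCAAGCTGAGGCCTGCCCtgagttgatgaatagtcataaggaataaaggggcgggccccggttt
Mdm2, chr10:117710759-117711008, minus strand: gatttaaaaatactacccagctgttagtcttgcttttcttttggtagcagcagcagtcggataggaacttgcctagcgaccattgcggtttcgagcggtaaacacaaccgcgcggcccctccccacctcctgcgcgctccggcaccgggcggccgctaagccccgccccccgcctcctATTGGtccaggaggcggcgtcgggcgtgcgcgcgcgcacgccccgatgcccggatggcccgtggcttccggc
Chek2, chr5:110839733-110839982, plus strand: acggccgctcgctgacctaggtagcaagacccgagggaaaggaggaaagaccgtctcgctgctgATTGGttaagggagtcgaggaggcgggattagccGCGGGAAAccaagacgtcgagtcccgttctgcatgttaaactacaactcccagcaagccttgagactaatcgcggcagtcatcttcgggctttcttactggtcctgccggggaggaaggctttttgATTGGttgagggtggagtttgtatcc

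The Trp73 window held the 1 p53 match among the 11 member windows, ending 46 bases before the start. Such a match occurred in 3.34% of 32851 windows. This start lies inside the gene, where transcripts for the form of p73 without its activation domain are known to begin, and that promoter is known to respond to p53. In the Mdm2 window the search found 1 CCAAT box, 67 bases before the start, and 0 p53 matches. The promoter of Mdm2 that p53 is known to use lies within the gene and so outside this window. The Chek2 window held 2 CCAAT boxes, the nearer 21 bases before the start, and the 1 E2F match among the member windows, 144 bases before it. CCAAT boxes were present in 33.8% of all windows and in 6 of the 11, and E2F matches in 1.86% of all windows. A match describes letters only and was not linked to the measured values by any test.

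Trp53, which encodes p53, lay at 4.52, 4.81 and 4.65 on vehicle 1 to 3 and at 5.14, 4.60 and 4.58 on DMBA 1 to 3. DMBA 1 was the highest array, and the other 2 DMBA arrays lay within the vehicle range. The change was 0.12 (SE 0.26, 95% interval -0.51 to 0.74, n = 3 per group; adjusted p = 1 with limma). Without DMBA 1 the change was -0.06. The probe is printed at 2 places on the array, and the SD between these spots was at most 0.062 on any array. Before scaling, DMBA 1 had the second lowest spot intensity, 47750 against 44060 to 59660 on the vehicle arrays, and its 75th percentile of 1355 was the lowest, against 1758 to 2274 on the other 5 arrays.

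Trp63, the family member that basal keratinocytes depend on, was read by 2 probes with different transcript accessions. Probe 1 (NM_001127261) lay at 6.52, 6.70 and 7.02 in vehicle and 7.08, 6.59 and 6.72 in DMBA, and these ranges overlap almost fully. Its change was 0.05 (SE 0.26, interval -0.58 to 0.68), and it had the narrowest range but 1 of the 16 probes, 0.56 over the 6 arrays. Probe 2 (NM_011641) lay at 3.68, 3.22 and 3.45 in vehicle and 3.25, 3.33 and 3.20 in DMBA, a change of -0.19 (SE 0.23, interval -0.75 to 0.36). It was -0.31 without vehicle 2 and -0.08 without vehicle 1. After centring each probe on its own mean, the 2 probes differed by up to 0.59 on an array. Which p63 isoforms each probe binds was not examined, since probe sequences were not used here.

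Trp73 was read by 3 probes with the same accession, and they did not give 1 picture. Probe 1 lay at 1.12, 2.31 and 2.31 in vehicle and 2.15, 1.84 and 1.45 in DMBA, with vehicle 1 as the low array. Probe 2 followed probe 1 within 0.08 on every array after centring, with changes of -0.06 (SE 0.39) for probe 2 and -0.10 (SE 0.41) for probe 1. Probe 3, the dimmest, lay at 0.10, 0.24 and 0.44 in vehicle and -0.44, -0.03 and -0.25 in DMBA, so that every DMBA array was below every vehicle array. Its change was -0.50 (SE 0.23, interval -1.07 to 0.07; adjusted p = 1 with limma). It differed from probe 1 by up to 0.83 on an array, so the separation of the groups was seen on 1 of 3 probes of the gene.

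Mdm2 is both the main inhibitor of p53 and a target that p53 induces. It lay at 1.60, 0.90 and 1.22 in vehicle and 0.67, 1.79 and 1.74 in DMBA. DMBA 2 and DMBA 3 were the highest arrays of all, and DMBA 1 the lowest. The change was 0.16 (SE 0.39, interval -0.79 to 1.11; adjusted p = 1 with limma). Without DMBA 1 it was 0.53 (adjusted p = 0.813 with limma), and it was -0.01 without vehicle 2, -0.04 without DMBA 2 and -0.01 without DMBA 3.

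Mdm4, whose product binds p53 and blocks its activation domain, was read by 2 probes that disagreed from array to array. Probe 1 lay at -0.05, -0.22 and -1.11 in vehicle and -0.14, -0.05 and -0.25 in DMBA, with vehicle 3 alone well below the rest. Probe 2 lay at -3.46, -0.81 and -1.37 in vehicle and -0.90, -1.52 and -2.22 in DMBA, and here vehicle 1 was the low array. The changes were 0.31 (SE 0.33) and 0.33 (SE 0.75). Without vehicle 3 the first was -0.01, and without vehicle 1 the second was -0.46. The centred values of the probes differed by up to 2.00, the widest gap among the probes of 1 gene.

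Ppm1d encodes the phosphatase WIP1, which switches off ATM and p53 and is itself induced by p53. It lay at -1.88, -1.83 and -0.59 in vehicle and -2.02, -2.68 and -1.68 in DMBA. Vehicle 3 stood above the other 5 arrays, and DMBA 3 lay inside the vehicle range. The change was -0.69 (SE 0.46, interval -1.81 to 0.42), and without vehicle 3 it was -0.27.

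Usp7 encodes a deubiquitinase that stabilises both MDM2 and p53. Probe 1 lay at 2.32, 2.51 and 2.50 in vehicle and 1.79, 2.54 and 2.51 in DMBA. Apart from DMBA 1, the arrays of both groups lay together. The change was -0.16 (SE 0.28), and 0.08 without DMBA 1. Probe 2, a dimmer probe, had a range of 1.51 over the arrays and a change of -0.11 (SE 0.44), with vehicle 1 lowest at -1.61 and vehicle 2 highest at -0.10.

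**Figure D2:**
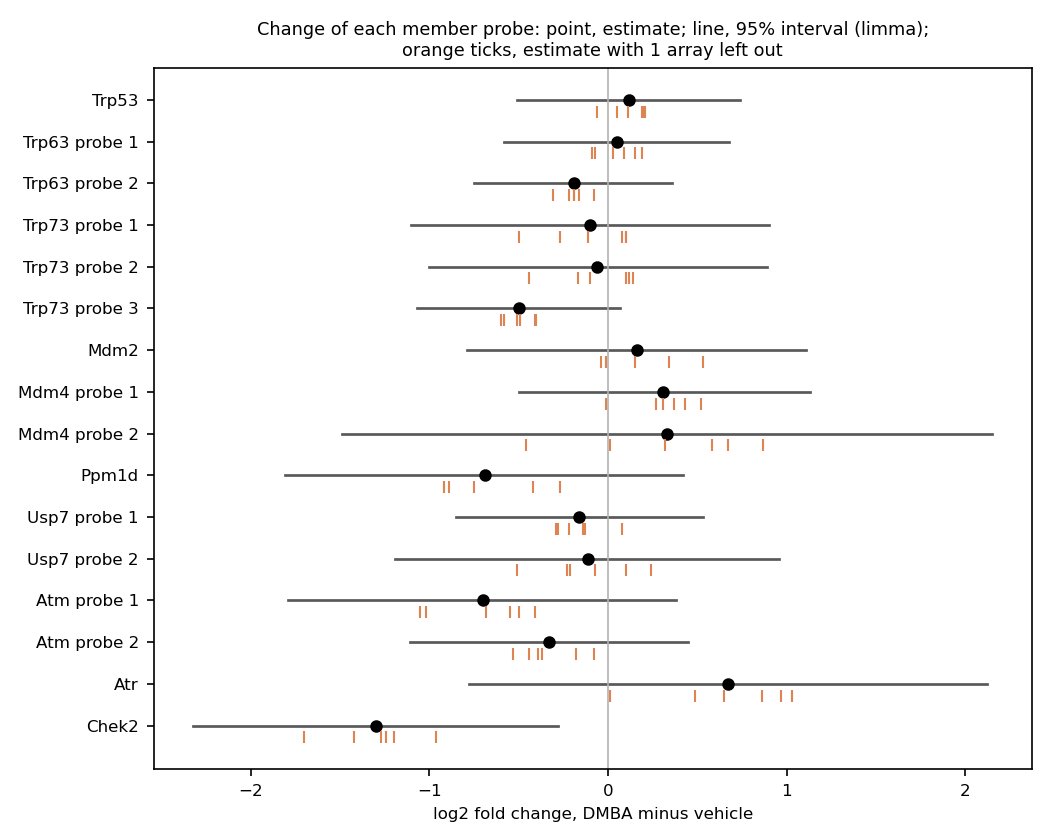
Log2 fold change (DMBA minus vehicle) of each member probe, with points for the estimate, lines for the 95% interval from limma and orange ticks for the estimate with 1 array left out. The interval of Chek2 (-2.32 to -0.28) is the only one of the 16 that leaves out 0, before any adjustment over probes.

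Of the damage kinases, Chek2 showed the largest change among all member probes. CHK2 is the kinase that ATM activates after double-strand breaks and that phosphorylates p53. Chek2 lay at -0.44, 1.06 and 0.50 on the vehicle arrays and at -0.98, -1.12 and -0.68 on the DMBA arrays. All 3 DMBA values lay below all 3 vehicle values. The vehicle mean was 0.37 ± 0.76 (SD, n = 3) and the DMBA mean -0.93 ± 0.23, so the vehicle level was 2.46-fold that after DMBA (log2 change -1.30, SE 0.42). This did not pass over all probes (adjusted p = 0.921 with limma), and it is the member probe counted above beside the 2.22% of all probes. The change ranged from -1.70 without vehicle 1 to -0.96 without vehicle 2. The unadjusted p stayed below 0.05 without vehicle 1 or DMBA 3 and was above it without each of the other 4 arrays. Chek2 had 1 probe and 1 spot, so no other probe of the gene could be set beside it.

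Atm, the kinase that responds to double-strand breaks, had 10 spots of 1 probe on each array, which shows how closely spots of an array repeat. Probe 1 lay at 0.60, 0.50 and -0.49 on the vehicle arrays and at -1.08, -0.54 and 0.12 on the DMBA arrays. DMBA 1 was lowest, and DMBA 3 lay above vehicle 3. The SD between the 10 spots was 0.052 to 0.084 on an array, while the SD between the 3 arrays of a group was 0.61 in vehicle and 0.60 in DMBA. Arrays of a group thus differed by more than spots of an array did. The change was -0.70 (SE 0.45, interval -1.79 to 0.38; adjusted p = 1 with limma), and -1.05 without vehicle 3 or -0.41 without DMBA 1. Probe 2, with 1 spot, lay at 0.40, -0.22 and -0.50 in vehicle and -0.75, -0.22 and -0.36 in DMBA. Its change of -0.33 (SE 0.32) was -0.53 without vehicle 3, -0.18 without DMBA 1 and -0.08 without vehicle 1. After centring each probe on its own mean, the 2 probes differed by up to 0.60 on an array.

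**Figure D3:**
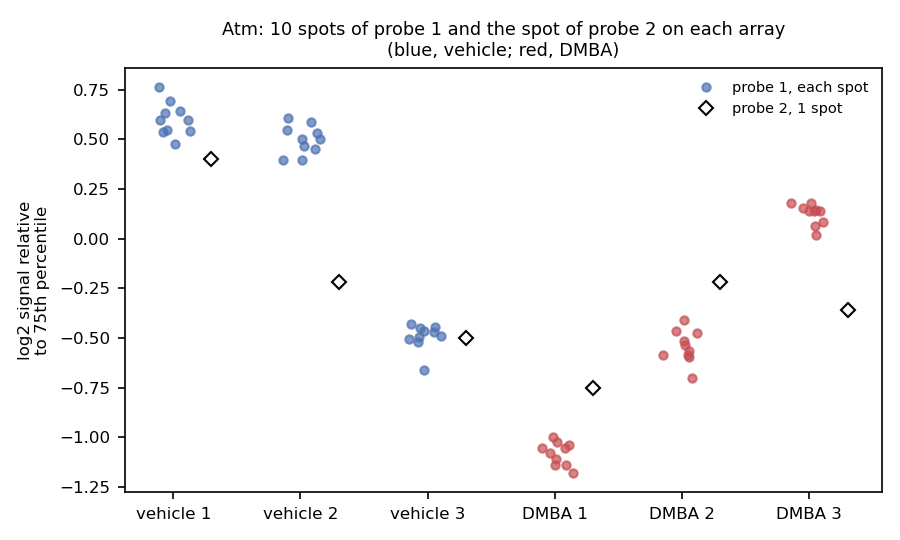
Log2 signal of Atm relative to the 75th percentile on each array, with dots for the 10 spots of probe 1 (vehicle in blue, DMBA in red) and diamonds for the single spot of probe 2. Spots of an array lie close together, with an SD of at most 0.084, while array means run from -1.08 to 0.60.

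Atr, which responds to single-stranded DNA at stalled replication forks, had the highest change of the members. It lay at 0.69, 0.82 and -1.23 in vehicle and 0.79, 0.37 and 1.11 in DMBA. Vehicle 3 alone was low, and vehicle 1 and vehicle 2 lay inside the DMBA range. The change was 0.67 (SE 0.60, interval -0.78 to 2.12; adjusted p = 1 with limma), and it was 0.01 without vehicle 3 and 1.03 without vehicle 2.

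Low values were not spread evenly over the arrays. Vehicle 1 was the lowest of the 6 arrays on 6 of the 16 probes and DMBA 1 on 5, where they were lowest on 15.4% and 11.9% of all probes. In the brightest group of probes the shares were 24.4% and 17.7%. DMBA 1 was also the highest array on 2 of the 16 probes, on 32.9% of all probes and on 35.8% of the brightest group. Probes of the same gene are counted separately here.

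Other genes of the pathway sense DNA damage or modify p53. Of 30 such genes (checkpoint sensors, repair scaffolds and p53 acetylases and kinases), 0 passed over all probes. At unadjusted p under 0.05 in limma 3 were lower and 0 higher, where 2.36% of all genes were lower and 2.55% higher (4.92% either way). The count of 3 lower genes was 0 without DMBA 3, 1 without vehicle 1, vehicle 3 or DMBA 1, and 2 without DMBA 2. The median log2 change was -0.18, against -0.01 over all genes, and 0.03 without DMBA 1. The groups did not overlap in 5 genes, all lower, or 16.7%, beside 5.17% of all genes.

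Clspn, which encodes the checkpoint adaptor claspin, lay at 0.76, 0.10 and 0.18 in vehicle and -0.71, -0.23 and -0.42 in DMBA (change -0.80, SE 0.28). Mre11a, a nuclease of the complex that recruits ATM, had a change of -0.73 (SE 0.29), and Topbp1, which activates ATR, -0.58 (SE 0.28). In each of these 3 genes every DMBA array lay below every vehicle array. The adjusted p-values with limma were 0.966, 1 and 1.

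Of 30 other regulators of p53, p63 or p73 stability, 0 passed over all probes, and 1 was lower (3.33%) and 0 higher at unadjusted p under 0.05 in limma, beside 2.36% and 2.55% of all genes. The count of lower genes was 2 without vehicle 2 or vehicle 3 and 0 without DMBA 2. The groups did not overlap in 1 higher gene (3.33%) and 4 lower genes (13.3%), beside 4.87% and 5.17% of all genes. The median change was 0.01. Usp28, a deubiquitinase that also binds the damage adaptor 53BP1, lay at -2.16, -1.08 and -2.33 in vehicle and -2.91, -3.27 and -2.96 in DMBA (change -1.19, SE 0.38, adjusted p = 0.922 with limma). Trp53bp2, whose product steers p53 towards cell death genes, had a change of -1.08 (SE 0.46), and Rassf1 -0.96 (SE 0.48). Pml, which encodes the scaffold of nuclear bodies, had 0.44 (SE 0.23) on the brighter probe and 1.70 (SE 0.75) on the other.

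Genes that p53 activates were listed apart from its regulators. Of 40 targets, 33 were above 0 and 7 below (48.8% and 51.2% of all genes), with a median log2 change of 0.67. Before adjustment, 13 were higher (32.5%) and 1 lower (2.5%) with p under 0.05 in limma, and the groups did not overlap in 16 higher genes (40.0%) and 1 lower, where the shares of all genes were 2.55%, 2.36%, 4.87% and 5.17%. None of the 40 passed over all probes with limma (smallest adjusted p = 0.498 on the brightest probe of each gene). The list was put together with earlier results of these samples known, so its direction is no independent evidence. When the fit also held each array's detected share of probes, the median was 0.46.

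Cdkn1a, the gene of the p21 inhibitor of cyclin-dependent kinases, lay at -0.09, 0.74 and 0.88 in vehicle and 2.42, 2.46 and 2.30 in DMBA. The DMBA arrays lay together and above every vehicle array, including DMBA 1, on which Mdm2 was at its lowest. The change was 1.88 (SE 0.32). A second, dimmer probe of Cdkn1a lay at -1.53, -1.41 and -1.26 in vehicle and 0.99, 1.85 and 1.84 in DMBA. Its change was 2.96 (SE 0.31) and did not pass over all probes either (adjusted p = 0.305 with limma). The other 2 named targets above 0 were Ccng1, the gene of cyclin G1, at -0.48, -1.32 and -1.23 in vehicle and 0.37, 1.21 and 0.78 in DMBA, and Ei24, at 0.42, 0.55 and 0.68 in vehicle and 1.70, 1.47 and 1.35 in DMBA. Rrm2b, a ribonucleotide reductase subunit, lay lower, at -2.33, -1.75 and -1.88 in vehicle and -2.78, -2.58 and -2.81 in DMBA. Its second probe overlapped, at -1.19, -3.33 and -2.06 in vehicle and -3.28, -1.95 and -2.45 in DMBA (change -0.37, SE 0.62). Set beside these, the regulators Mdm2 and Ppm1d, which are p53 targets too, had changes of 0.16 and -0.69 with overlapping groups. Whether they differ from the other targets was not tested.

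**Figure D4:**
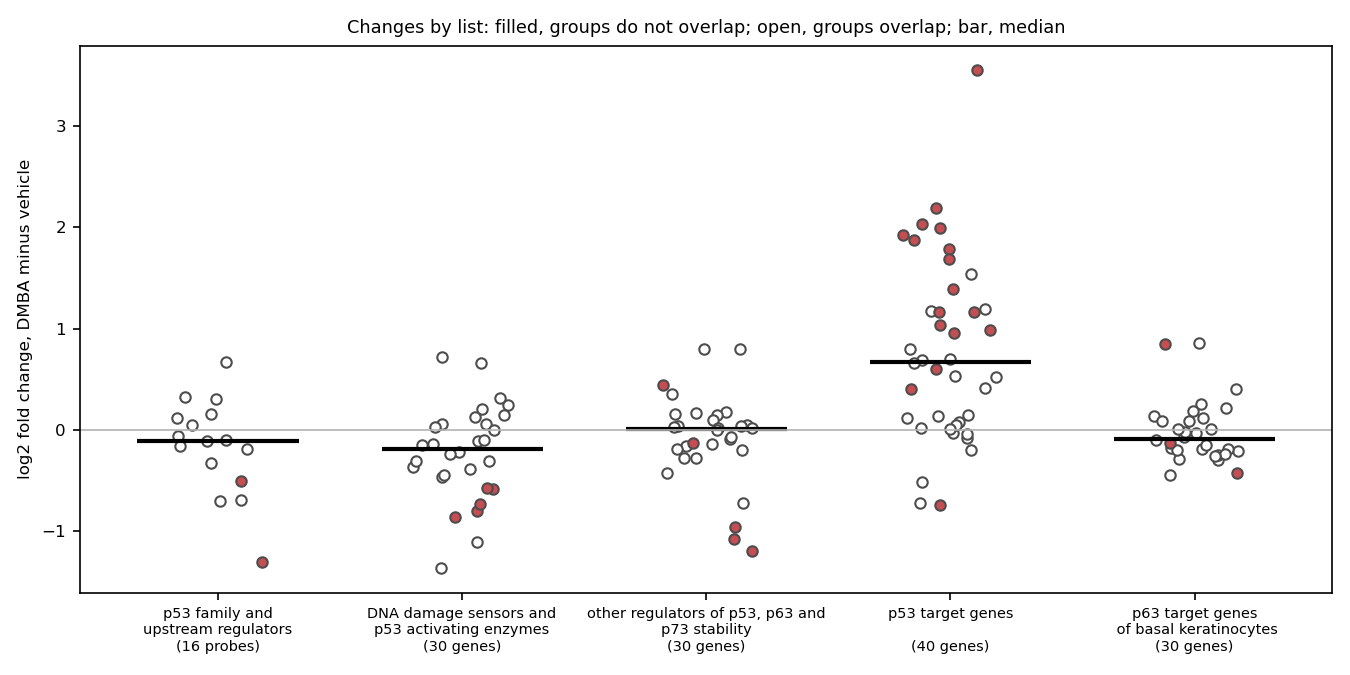
Log2 fold change (DMBA minus vehicle) of the 16 member probes and of the genes of 4 pathway lists, 1 point each, filled where the groups do not overlap, with a bar at the median. The medians are -0.11 for the members, -0.18 and 0.01 for the other regulators, 0.67 for p53 targets and -0.08 for p63 targets.

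Target genes of p63 in basal keratinocytes had a median of -0.08, and 0 of 30 passed over all probes. None had an unadjusted p under 0.05 in limma, beside 4.92% of all genes. The groups did not overlap in 1 higher gene (3.33%) and 2 lower genes (6.67%), beside 4.87% and 5.17% of all genes. This list shares Perp with the p53 targets. It also holds Krt15, whose promoter drives the reporter used in the sort, and Itga6, whose surface product was used in the sort. Fras1, a basement membrane gene, had a change of 0.85 (SE 0.39) with the groups apart. For Dlx3, a homeobox gene, the change was -0.13 (SE 0.20), and its lowest vehicle value and highest DMBA value were both 2.13 after rounding.

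The genes whose values over the 6 arrays, centred on their own mean, lay closest to those of a member were taken from 16593 named genes. For Trp53 they were Coro1c, Tle2 and Olfr172, with root mean square differences of 0.041, 0.043 and 0.043. For Trp63 probe 1 they were Crebbp, Ndufa13 and Cmtm7 (0.018, 0.048 and 0.058), and for Mdm2 they were Tapt1, Prmt9 and Naa60 (0.063, 0.085 and 0.089). Trp53 and Trp63 probe 1 each varied by 0.209 about their own mean, so little variation was there to be matched. Mdm2 varied by 0.426. For each member these are the closest of 16593 genes over only 6 arrays. Before scaling, Trp63 probe 1 was lowest on DMBA 1, at 183400 against 208300 to 228500 on the other arrays. After scaling it was highest there. The part of the scaling in these likenesses was not tested.

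Follicle markers of the sort label were detected, and so were most probes. All 15 genes on a list for the gate, follicle stem cells and hair germ were well above background on all arrays. The list holds Krt15 and Itga6, and also Ly6a, the gene of the antigen that the sort excluded. Of the 44955 probes tested, 36015 were well above background on all arrays too, so this count does not identify the cells. The follicle stem cell genes Lgr5 and Sox9, singled out after their values were seen, were lower after DMBA without overlap. Lgr5 lay at 3.48, 3.10 and 3.34 in vehicle and 2.63, 2.75 and 2.63 in DMBA (change -0.64, SE 0.22), and Sox9 at 3.12, 2.91 and 3.29 in vehicle and 2.33, 2.81 and 2.67 in DMBA (change -0.50, SE 0.25). Neither passed over all probes, and 5.17% of all genes were lower without overlap. On the same marker list the groups overlapped for Cdh3 (change -0.30), Itga6 (-0.19), Cd34 (-0.01), Lhx2 (0) and Krt15 (0.19). Changes of the remaining markers are not given here. Ly6a, from which the Sca1 antigen excluded by the sort is made, is counted on that list and on the interfollicular one below. It lay at -0.20, -1.67 and -1.78 in vehicle and 0.29, 0.27 and 0.13 in DMBA, higher without overlap (change 1.45, SE 0.46). Ly6a did not pass over all probes either. Markers of other cells were present too. On all arrays, 12 of 12 interfollicular, infundibular and sebaceous, 7 of 10 melanocyte, 10 of 13 leukocyte, 6 of 10 fibroblast, 7 of 10 endothelial and muscle and 3 of 4 red cell markers were well above background. Oca2 of melanocytes, Pdgfra of fibroblasts, Rgs5 of pericytes and Hbb-bt of red cells were so on none. The summed interfollicular level was 6.23 to 6.78 in vehicle and 6.45 to 6.83 in DMBA. The summed fibroblast level was 2.56 to 2.97 in vehicle and 3.00 to 3.69 in DMBA on the log2 scale, without overlap. Whether it differed was not tested. The summed levels overlapped for melanocyte (1.58 to 2.17 in vehicle, 2.05 to 2.76 in DMBA) and leukocyte markers (6.55 to 6.88 and 6.50 to 7.18). They also overlapped for endothelial and muscle markers (2.94 to 3.06 and 2.93 to 3.31). Probes well above background made up 77.0% to 83.6% in vehicle and 69.3% to 80.9% in DMBA, and vehicle 1 lay on a slide of its own that was scanned apart from the others. Their part in the Chek2 difference and in the values of the p53 targets was not tested. The change of Chek2 was -1.38 with the detected share as a covariate (adjusted p = 0.725 with limma). Its unadjusted p with limma was 0.0644 with this covariate and 0.0204 without it. A slide effect could not be estimated, since a slide block only sets vehicle 1 aside.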

How the data were processed

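RNA from 3 vehicle and 3 DMBA samples was measured on 1-colour Agilent arrays. Per the labels, RNA was purified with a column kit and cDNA was labelled with Cy3. Agilent Feature Extraction 10.7.1.1 is the reader named in the submitters' processing notes. The deposited scanner files hold the intensity of each spot, corrected for background by that software per the file headers. A series matrix, also deposited, gives intensity on a linear scale. Its columns had 75th percentiles of 1.004 to 1.007 and medians of 0.154 to 0.172, and it followed the scanner values with Pearson's r across probes of 0.99992 to 0.99997. It was used as an alternative.

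From the scanner files, log2 signals minus the log2 75th percentile of each array over spots that are not controls were computed in R 4.3.3 with limma 3.58.1. Outlier spots were treated as missing (45 probe values over all 6 arrays), and spots of a probe were averaged. From 55681 probes, the 44955 that were detected well above background on 3 or more of the 6 arrays were tested with lmFit and eBayes, two-sided and without covariates. P-values were adjusted over all of these with the Benjamini-Hochberg method at 0.05. Probes were named by RefSeq accession through the GRCm38.p6 annotation, used for names and promoter windows only, since the headers name another build; 28331 probes had a symbol. The 4 pathway lists use the brightest kept probe of each gene, and symbols were matched to those of the annotation. The test was checked on simulated data. The number of arrays limits the precision.

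The members, lists and tests were chosen with earlier results of these data known. Genes named from a list are those with the smallest p, up to 3 per direction, whose groups do not overlap and whose higher group was well above background on all its arrays. One gene that this rule names is not reported here. Alternatives were another normalization, background correction, filter, probe choice, block, covariate and eBayes setting, the deposited matrix, and leaving out each array.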

Additional observations from a re-analysis of the deposited data

How the results depend on the processing

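Slide as a block gives the values without vehicle 1, since that array is alone on its slide, so these 2 of the 17 alternatives are the same change. Under all 17 alternatives 0 member probes passed over all probes, with a smallest adjusted p of 0.576 to 1. Over all probes the count was 0 under 16 of them and 3 with normexp on the median signals, an alternative chosen after seeing the data in place of the planned one on mean signals, which was not run. Chek2 stayed below 0 throughout (-1.70 to -0.96), with limma p under 0.05 in 12 of the 17. Same-numbered samples did not deviate together (r of 0.03, -0.01 and 0.04 for the 3 pairs). Samples with different numbers gave r of -0.05 to 0.03. The labels do not say whether the numbers pair the samples, and this check cannot settle it. With the replicate number as a replicate block the change of Chek2 was -1.30 (adjusted p = 0.93 with limma), and the block left the count of member probes past the threshold at 0. Among damage sensors it gave 1 higher and 1 lower gene at unadjusted p under 0.05, against 0 and 3 without it.

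The sign of 9 of the 16 member probes turned when 1 array was left out, in 17 of 96 values, and that of 7 never turned. The ranges were -0.06 to 0.21 for Trp53, -0.09 to 0.19 for Trp63 probe 1, -0.50 to 0.10 and -0.44 to 0.14 for Trp73 probes 1 and 2, -0.04 to 0.53 for Mdm2, -0.01 to 0.52 and -0.46 to 0.87 for Mdm4 probes 1 and 2, and -0.29 to 0.08 and -0.51 to 0.24 for Usp7 probes 1 and 2. Under the other alternatives 4 of 170 signs turned: Trp63 probe 1 was -0.05 with quantile normalization and -0.07 with slide as a block, Mdm4 probe 2 -0.46 with slide as a block, and Mdm2 -0.30 with each array's detected share of probes as a covariate. That covariate moved the median of all probes from 0.013 to 0.161, the p53 targets to 0.46 and the p63 targets to -0.27. The list of other stability regulators had a median of -0.05 with quantile normalization. With 1 array left out, list medians ranged from -0.33 to 0.03 for damage sensors, from -0.10 to 0.00 for stability regulators, from 0.52 to 0.81 for p53 targets and from -0.16 to 0.06 for p63 targets. The causes were not tested.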
